A study of Mus musculus with 6 samples.

Results

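Replication licensing prepares chromosomes to be copied once in each cell cycle. In G1 the origin recognition complex, Cdc6 and Cdt1 load the MCM helicase, a ring of Mcm2, Mcm3, Mcm4, Mcm5, Mcm6 and Mcm7, onto DNA, and kinases then start the loaded ring together with Mcm10. Geminin, the product of Gmnn, binds Cdt1 from S phase on and keeps origins from being loaded again. Many of these genes are textbook targets of the E2F transcription factors and are expressed in cycling cells. The 10 genes described here were chosen by name, with earlier results of these data known. They are the 6 subunits of the ring, Mcm10, the loaders Cdc6 and Cdt1, and the inhibitor Gmnn. All 10 had a probe set with a single gene symbol, out of 18193 genes measured, and together they had 27 of the 45037 probe sets tested. Each gene is described through its brightest probe set, that is the highest by its mean signal on all 6 arrays, and the other 17 sets are given beside it.

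The RNA came from mPAC L20, a single cell line derived from mouse pancreatic duct, and not from primary duct tissue. All cells, controls included, were infected with an adenovirus in which the CMV promoter drives Neurog3, a transcription factor needed for islet cell formation. Before it, cells received an adenovirus with a scrambled hairpin (shControl, 3 arrays) or with an Atoh8 hairpin (shAtoh8, 3 arrays); Atoh8, also called Math6, is a helix-loop-helix transcription factor. Both viruses were added at a multiplicity of 40, and cells were harvested after a further 44 to 46 h. None of the 6 samples lacked the Neurog3 virus or a hairpin virus. Per the labels the experiment was done 3 independent times, and arrays with the same replicate number are called a pair.

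Values are log2 signals after the submitters' RMA normalization, and array medians lay between 5.49 and 5.56. On the shAtoh8 array of replicate 2 the hybridisation controls were dimmer than elsewhere (mean log2 signal 9.89, against 10.24 to 10.48), and its 3' to 5' gap in actin was wider (0.35, against 0.11 to 0.20). The hairpin's target, Atoh8, had signals of 8.75, 8.29 and 7.52 in replicates 1, 2 and 3 of shControl, against 7.83, 7.90 and 7.37 in shAtoh8. That is a log2 fold change of -0.49 ± 0.30 (SE, n = 3 per group; limma adjusted p = 0.573, and 0.157 with the replicate number as a block), so the groups overlapped and the knockdown did not pass the test. Of 8 duct markers 7 were measured, with group means from 7.31 for Epcam to 13.91 for Krt8. The measured acinar, endocrine and fibroblast markers had group means of 3.05 to 8.82. Presence or absence was not called, as no detection calls were used.

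The sequences upstream of Mcm5 and Mcm6 are shown because both hold the same 12 letters on opposite strands, while the genes differed in the size of their change. RefSeq promoter windows (GRCm38.p6, 250 bases before to 50 after a start) were found for 8 of the 10 genes. They were searched on both strands for the E2F letters TTTCGCGC, TTTGGCGC, TTTCCCGC and TTTGCCGC. The 250 bases before the starts read as follows, 5′ to 3′ on the gene's strand, with matches in capitals: Mcm5 at chr8:75109259-75109508 (plus strand) and Mcm6 at chr1:128359706-128359955 (minus strand).
Mcm5: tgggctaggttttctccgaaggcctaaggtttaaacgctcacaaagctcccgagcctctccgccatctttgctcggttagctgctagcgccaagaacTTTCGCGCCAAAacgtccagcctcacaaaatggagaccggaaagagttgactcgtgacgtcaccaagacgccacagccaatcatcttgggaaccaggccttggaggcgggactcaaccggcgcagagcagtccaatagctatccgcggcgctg
Mcm6: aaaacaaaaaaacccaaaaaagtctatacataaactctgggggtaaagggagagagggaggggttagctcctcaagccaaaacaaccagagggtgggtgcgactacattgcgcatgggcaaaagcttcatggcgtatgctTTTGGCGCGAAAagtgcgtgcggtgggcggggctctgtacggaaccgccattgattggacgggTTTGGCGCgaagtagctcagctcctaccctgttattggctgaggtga

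In each of these genes 2 matches on opposite strands overlap. The stretch they form in Mcm5, TTTCGCGCCAAA, is the reverse complement of TTTGGCGCGAAA in Mcm6. These 12 letters occurred on either strand in 4 of 32851 promoter windows (0.0122%), those of Mcm5, Mcm6, Msh3 and Mycn. Short stretches around a match are shown for the other genes that had any, each with the match in capitals. They lie at chr1:20820275-20820304 (Mcm3, minus strand), chr5:138171849-138171878 (Mcm7, minus strand), chr11:98908002-98908031 (Cdc6, plus strand) and chr8:122568036-122568064 (Cdt1, plus strand).
Mcm3: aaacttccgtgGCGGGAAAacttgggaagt
Mcm7: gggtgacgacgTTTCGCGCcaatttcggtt
Cdc6: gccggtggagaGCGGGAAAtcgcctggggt
Cdt1: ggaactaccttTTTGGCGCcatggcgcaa

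Of the 8 genes 6 had a match (75%), against 2.26% of the 32851 windows and 3.81% of the 14452 measured genes with a window. The windows of Mcm2 and Mcm10 held none of these letters, which says nothing of E2F at these genes. That of Mcm10 ends in TTTGGCG, so its lack of a match may depend on where the window was cut. CCAAT, another sequence common in promoters of cell cycle genes, was in windows of 6 of the 8 genes, against 42.0% of measured genes. The CHR letters TTTGAA were in 1 of the 8, that of Mcm2, against 15.7%, and the E-box letters CANNTG, the general form bound by basic helix-loop-helix factors, were in 4, against 70.9%. A match is a description of letters and not a binding site.

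Whether licensing genes differ between the Atoh8 hairpin and the scrambled hairpin was read from a comparison over all probe sets. All 10 genes had a lower mean in shAtoh8, with log2 fold changes from -0.97 (Mcm3) to -0.21 (Mcm7) and a median of -0.71, or 1.64-fold lower. The median over all 18193 genes was 0.01, and 46.9% of genes had a negative value. With the replicate number as a block, Mcm3, Mcm4, Mcm5, Cdc6 and Gmnn fell (5 of 10; limma adjusted p under 0.05 over all probe sets), where 2.75% of all genes were called lower. Without the block none of the 10 passed (0, against 5 at an unadjusted p under 0.05 in limma), where 0.638% of all genes were called lower and 8.82% were lower at an unadjusted p under 0.05. Leaving out both arrays of replicate 1, or of replicate 3, the block fit called no gene at all (0 over all genes in limma). At an unadjusted p under 0.05, 6 of the 10 stayed lower in each case, where 3004 and 2565 of all 18193 genes passed in either direction. The median of the 10 was -0.64 and -0.61. Leaving out replicate 2 the block fit called 966 genes, 6 of the 10 among them, and the median of the 10 was -0.88. There 9 of the 10 were lower at an unadjusted p under 0.05, where 3935 of all 18193 genes passed in either direction. Each of these fits has 1 residual degree of freedom. In a bulk culture, fewer cells expressing a gene and less RNA per cell cannot be told apart.

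**Figure D1:**
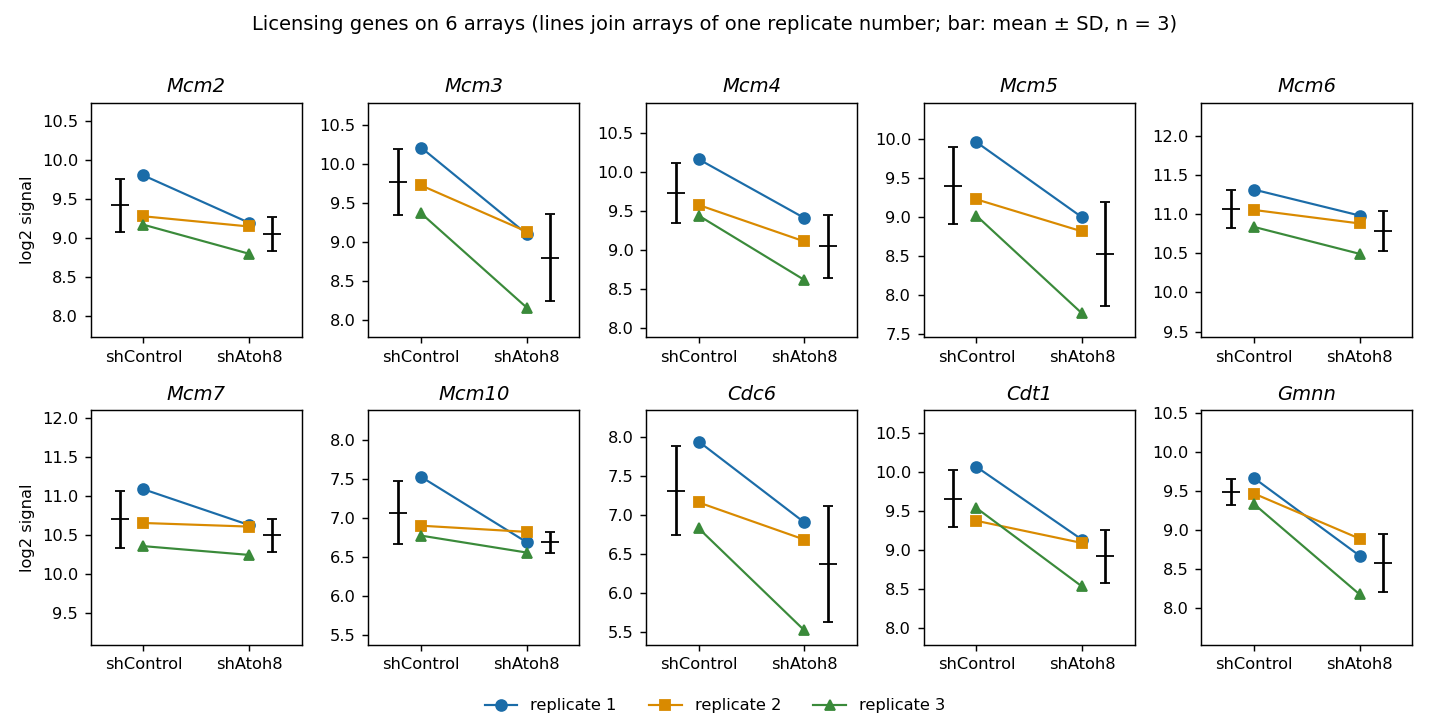
The log2 signal of each licensing gene in shControl and shAtoh8, on a span of 3 log2 units per panel, with lines joining arrays of the same replicate number and black bars for the mean ± SD (n = 3). All 30 lines run downward, and for all 10 genes shControl replicate 1 is the highest array and shAtoh8 replicate 3 the lowest.

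Among the ring subunits, Mcm3 had the most negative value. Its signals were 10.21, 9.73 and 9.37 in replicates 1, 2 and 3 of shControl, against 9.10, 9.13 and 8.16 in shAtoh8. Every shAtoh8 array lay below every shControl array, and the log2 fold change was -0.97 ± 0.31 (SE), or 1.96-fold lower (limma adjusted p = 0.209 without the block and 0.0292 with it).

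Mcm5 read 9.95, 9.22 and 9.01 in shControl, and 8.99, 8.81 and 7.76 in shAtoh8. The groups were parted by 0.019, the gap between shControl replicate 3 and shAtoh8 replicate 1. The fold change was -0.87 ± 0.36 (SE), with limma adjusted p of 0.344 and, with the block, 0.0480. The brightest probe set of Mcm5 is of a kind marked for possible cross-hybridisation, as are those of Mcm2, Mcm3 and Mcm7. The next set of Mcm5 gave the same size of change (-0.88 ± 0.34) with a limma adjusted p of 0.0527 with the block.

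Mcm4, whose product sits in the catalytic part of the ring with those of Mcm6 and Mcm7, read 10.16, 9.58 and 9.44 in shControl, and 9.41, 9.11 and 8.62 in shAtoh8. The highest shAtoh8 array, replicate 1, was 0.030 below the lowest shControl array. The fold change was -0.68 ± 0.25 (SE), with limma adjusted p of 0.277 and, with the block, 0.0318.

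Mcm2, Mcm6 and Mcm7 had smaller values, and none of them passed the test on its brightest set. Mcm2 read 9.80, 9.27 and 9.17 in shControl, and 9.19, 9.14 and 8.79 in shAtoh8, with a fold change of -0.37 ± 0.19 (SE; limma adjusted p = 0.458, and 0.145 with the block). The groups overlapped, since shAtoh8 replicate 1 was above shControl replicate 3. The second probe set of Mcm2 gave -0.62 ± 0.21, did not overlap between groups and passed with the block (limma adjusted p = 0.0349), so the call for Mcm2 depends on the probe set.

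Mcm6 read 11.32, 11.06 and 10.84 in shControl, and 10.99, 10.88 and 10.50 in shAtoh8, a fold change of -0.28 ± 0.17 (SE; limma adjusted p = 0.549, and 0.143 with the block). Mcm7 read 11.09, 10.66 and 10.36 in shControl, and 10.63, 10.61 and 10.25 in shAtoh8, a fold change of -0.21 ± 0.20 (SE; 0.752 and 0.395). In both genes the shAtoh8 arrays of replicates 1 and 2 lay above shControl replicate 3. The other 3 probe sets of Mcm7 gave -0.40 to -0.27, and none passed with or without the block.

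The values of the subunits were also set against their mean change of -0.56. Taken as the difference from the mean of the 6 subunits on the same array, Mcm3 was lower in shAtoh8 in all 3 pairs (by -0.40, -0.29 and -0.52 on the log2 scale), as was Mcm5 (-0.26, -0.11 and -0.57). Mcm7 was higher in all 3 (0.25, 0.26 and 0.57), as were Mcm6 (0.37, 0.13 and 0.34) and Mcm2 (0.10, 0.17 and 0.31). Mcm4 stayed nearest to the mean (-0.05, -0.16 and -0.14). These are values on the brightest probe sets, given as a description with no test. The mean includes each subunit itself, so where some subunits lie below it others must lie above it. For Mcm2 the direction depended on the probe set, since its second set lay at -0.02, -0.13 and -0.02 from the same mean. The other 3 sets of Mcm7 lay above it in all 3 pairs, by 0.16 to 0.29 on average. A dim set of Mcm3 (mean log2 signal 4.05) also lay above it, by 0.58, 0.35 and 0.69. So did a dim set of Mcm5 (4.69), by 0.06, 0.33 and 0.08. The brighter sets of Mcm3 and Mcm5 lay below the mean in all 3 pairs.

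Mcm10, which binds the loaded helicase at the start of replication, read 7.53, 6.91 and 6.78 in shControl, and 6.69, 6.83 and 6.56 in shAtoh8. Most of its fold change of -0.38 ± 0.19 (SE; limma adjusted p = 0.474, and 0.271 with the block) came from pair 1, whose difference was -0.84, against -0.08 and -0.22 in pairs 2 and 3. The groups overlapped, with shAtoh8 replicate 2 above shControl replicate 3. The weight of pair 1 depended on the probe set. A set with a shControl mean of 4.29 had pair differences of -0.004, -0.39 and -0.39, without overlap of the groups. Another, with a shControl mean of 5.18, had -0.12, -0.10 and -0.02.

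Cdc6, the ATPase that works with the origin recognition complex in loading, read 7.94, 7.16 and 6.82 in shControl, and 6.90, 6.68 and 5.52 in shAtoh8. Its spread between replicates was the widest of the 10 (SD 0.57 in shControl and 0.74 in shAtoh8), and shAtoh8 replicate 1 lay above shControl replicate 3. Within pairs the differences were -1.04, -0.48 and -1.31, and the fold change of -0.94 ± 0.41 (SE; limma adjusted p = 0.371) passed with the block (0.0408).

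Cdt1, the loader that geminin binds, read 10.07, 9.38 and 9.54 in shControl, and 9.14, 9.09 and 8.54 in shAtoh8. The groups did not overlap, and the fold change was -0.74 ± 0.22 (SE), 1.67-fold lower. It did not pass on this set (limma adjusted p = 0.188, and 0.0611 with the block), while the next set, at -0.72 ± 0.21, passed with the block (0.0405).

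Gmnn had the smallest p of the 10. It read 9.66, 9.46 and 9.33 in shControl, and 8.67, 8.89 and 8.17 in shAtoh8, so that 0.44 separated the lowest shControl array from the highest shAtoh8 array, the widest gap among the 10. The means were 9.49 ± 0.17 and 8.58 ± 0.37 (SD, n = 3 each). The fold change was -0.91 ± 0.19 (SE), 1.88-fold lower, with limma adjusted p of 0.0813 and, with the block, 0.0292. Of all 18193 genes, 178 had a more negative value.

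The loader and its inhibitor were also set against each other on the same array. Cdt1 minus Gmnn gave 0.41, -0.09 and 0.21 on the shControl arrays, against 0.47, 0.21 and 0.36 on the shAtoh8 arrays. It was higher in shAtoh8 in all 3 pairs (by 0.06, 0.29 and 0.15), with a mean difference of 0.17, and the groups overlapped. The two-sided exact permutation test gave p = 0.5 with the arrays taken as unpaired, where the smallest possible is 0.1, and p = 0.25 within pairs, which is the smallest that 3 pairs allow. Neither could pass 0.05.

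The groups did not overlap for 5 of the 10 genes (Mcm3, Mcm4, Mcm5, Cdt1 and Gmnn), where 11.4% of all genes had every shAtoh8 array below every shControl array. All 10 genes were lower in all 3 pairs, where 21.5% of all genes were. The median difference of the 10 was -0.89 in pair 1, -0.35 in pair 2 and -0.91 in pair 3. Pair 2 had the smallest difference for all 10 genes, where 37.6% of all genes had their smallest difference there. Pair 2 holds the shAtoh8 array with the weaker spikes, and the part of that array in these differences was not tested. Over all genes the median absolute difference in pair 2 was 0.14, between those of pair 1 (0.13) and pair 3 (0.17).

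**Figure D2:**
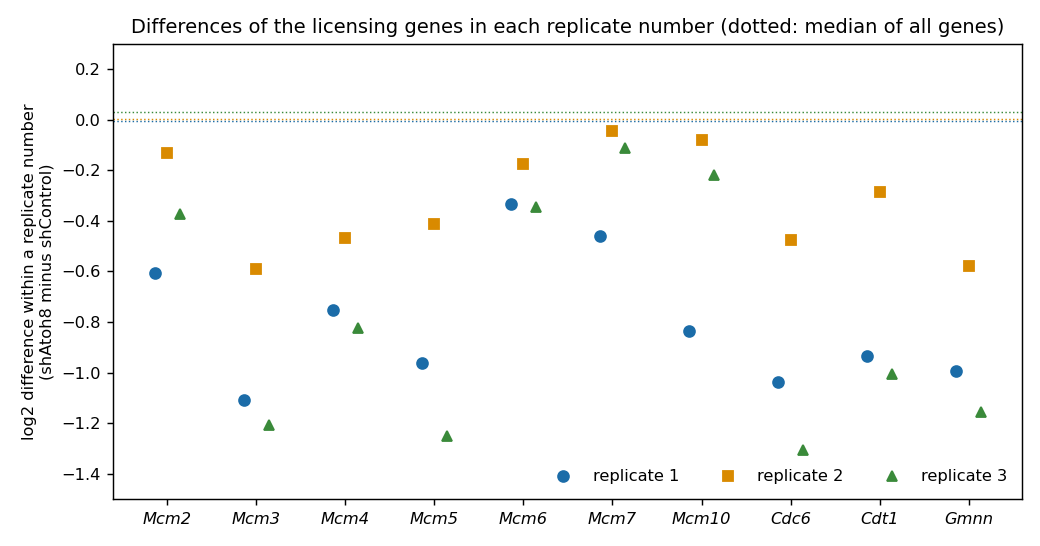
The log2 difference, shAtoh8 minus shControl, within each replicate number for the 10 licensing genes, with dotted lines for the median of all genes. All 30 points lie below 0, from -0.05 (Mcm7, replicate 2) to -1.31 (Cdc6, replicate 3), and the replicate 2 square is the highest point for every gene.

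The licensing genes also varied between replicate numbers. Their median range was 0.73 within shControl and 0.66 within shAtoh8, beside a median fold change of -0.71. These are unlike measures, as a range spans single arrays and a fold change is a difference between group means. The range within shControl was larger than the fold change for 7 of the 10 genes, and so was the range within shAtoh8 (also 7 of 10). These ranges went from 0.33 to 1.11 within shControl and from 0.26 to 1.38 within shAtoh8. For all 10 genes shControl replicate 1 was the highest of the 6 arrays, where it was for 15.7% of all genes, and shAtoh8 replicate 3 was the lowest, where it was for 19.0%. The mean of the 10 genes was 9.77, 9.24 and 9.07 in replicates 1, 2 and 3 of shControl, against 8.97, 8.92 and 8.29 in shAtoh8, so that shControl replicate 3 stood only 0.09 above shAtoh8 replicate 1.

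Markers of cycling cells were lower beside the licensing genes. Of 4 listed, 3 were measured and all 3 had negative values, where 46.9% of all genes did. They were Mki67 (-1.41 ± 0.41 SE; limma adjusted p = 0.174, and 0.103 with the block), Top2a (-1.70 ± 0.37; 0.0928 and 0.0363) and Ccna2 (-1.02 ± 0.23; 0.0986 and 0.0294). Over all genes 2.75% were called lower with the block. The summed log2 signal of the 3 markers was 29.3 to 29.7 in shControl and 22.8 to 27.0 in shAtoh8. Within shControl the ranges of these markers were 0.31 (Mki67), 0.19 (Top2a) and 0.30 (Ccna2), against 0.33 to 1.11 for the 10. Within shAtoh8 they were 1.80, 1.55 and 0.88, against 0.26 to 1.38, and replicate 3 was the lowest array for each marker, as for the licensing genes. Their part in the licensing values was not tested. Of the 7 measured duct markers Epcam fell with the block (-0.73 ± 0.19 SE; limma adjusted p = 0.145 without it and 0.0463 with it). Without the block 2 duct markers, Epcam and Krt7 (-0.25 ± 0.09 SE), were lower at an unadjusted p under 0.05 in limma, where 8.82% of all genes were. None of the acinar, endocrine and fibroblast markers passed (0 with or without the block; 1 acinar marker, Cela1, was higher at an unadjusted p under 0.05).

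The 17 other probe sets of the licensing genes all had negative values, where 46.9% of all genes did on their brightest sets. They read the same genes on the same 6 arrays, so they are not independent of the brightest sets. Of the 17 sets, 11 had shControl means above the array medians, with values from -1.01 (a set of Mcm3) to -0.13 (a set of Mcm6). With the block 6 of the 11 passed lower: 3 of Mcm3 and 1 each of Mcm2, Mcm4 and Cdt1. On brightest sets 2.75% of all genes were called lower with the block. The other 6 sets had shControl means below the array medians, gave values of -0.41 to -0.03, and none passed. Gmnn and Cdc6 had a single set each.

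**Figure D3:**
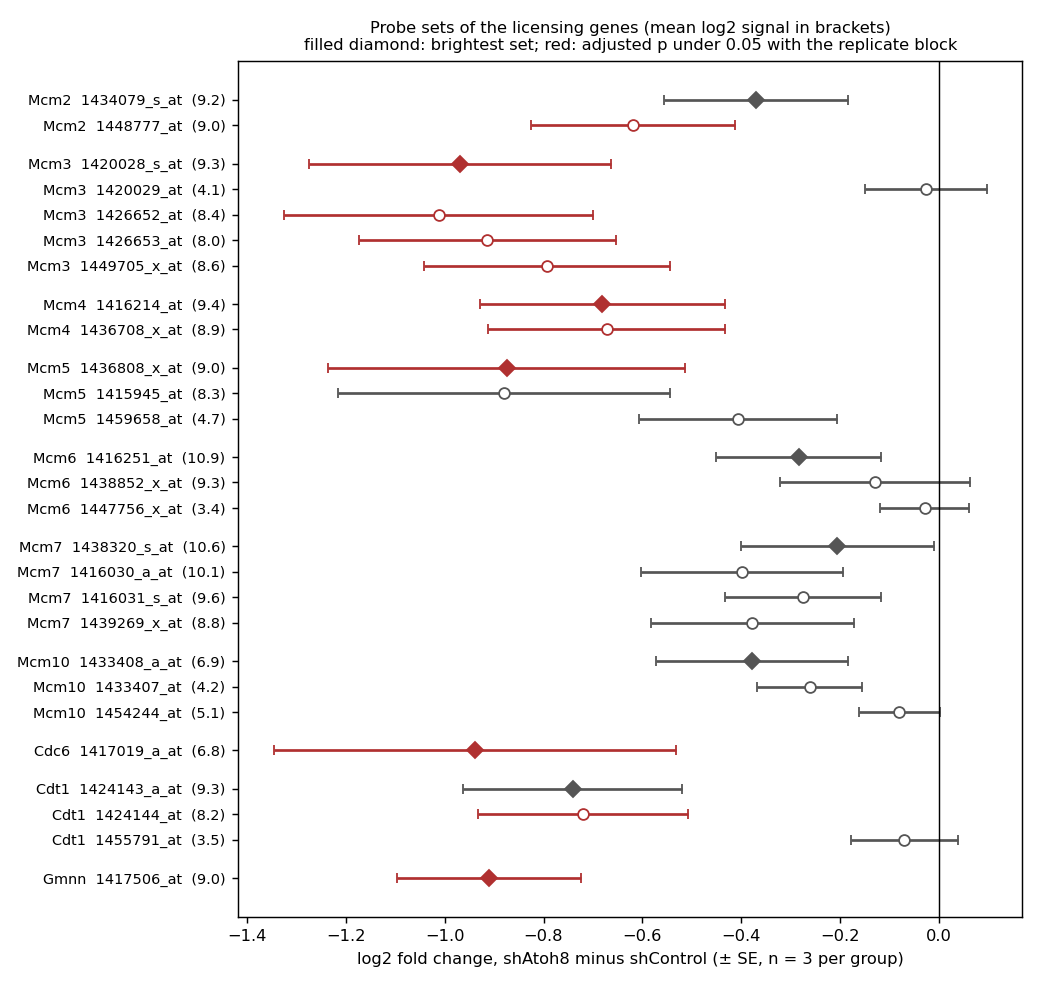
Log2 fold change ± SE (n = 3 per group) of each of the 27 probe sets of the licensing genes, with the mean log2 signal in brackets, filled diamonds for the brightest set of a gene and red for an adjusted p under 0.05 with the replicate block. All points lie left of 0, and those nearest to it are mostly dim sets, with shControl means of 3.44 to 5.18.

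The licensing values were then read beside other genes of the pathway, in lists chosen with earlier results of these data known. Of 35 listed genes 32 were measured, 25 of them with negative values and a median of -0.20. None passed without the block (0, against 10 lower and 1 higher at an unadjusted p under 0.05 in limma), and 2 fell with it, Cdc45 and Gins1. Over all genes 46.9% were negative, 8.82% were lower at an unadjusted p under 0.05 without the block, and 2.75% were called lower with it.

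The origin recognition complex, onto which Cdc6 and Cdt1 build, had values of both signs. Of its 7 genes 4 were negative, with values from -0.27 to 0.20 and a median of -0.07, and none passed (0 with or without the block in limma). At an unadjusted p under 0.05 there were 0 without the block, and 1 lower (Orc6) and 1 higher (Orc3) with it. Without the block the smallest p were those of Lrwd1, which binds the complex on chromatin (-0.22 ± 0.11 SE, limma adjusted p = 0.469), and Orc3, a core subunit (0.20 ± 0.12, 0.561). The most negative value was that of Orc6, at -0.27 ± 0.20 (SE), which like that of Lrwd1 was more negative than that of Mcm7 (-0.21).

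Genes of helicase activation, the step after loading, were negative in 12 of 12, where 46.9% of all genes were, with a median of -0.48. Cdc45, which joins the ring to form the active helicase, read 7.53, 6.88 and 6.79 in shControl, and 6.40, 6.37 and 5.66 in shAtoh8. Its groups did not overlap, and its fold change was -0.92 ± 0.26 (SE; limma adjusted p = 0.163, and 0.0346 with the block). Gins1, a subunit of the GINS complex in the same helicase, had -0.74 ± 0.16 (0.0978 and 0.0302), again without overlap. In this list 8 genes were lower at an unadjusted p under 0.05 without the block, where 8.82% of all genes were.

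The 9 genes that remove Cdt1 through ubiquitin ligases had a median of -0.01, with 5 negative values, and none passed with or without the block (0, against 1 lower and 1 higher at an unadjusted p under 0.05 without the block). Those were Pcna, the sliding clamp on which Cdt1 is marked for destruction in S phase (-0.46 ± 0.19 SE; limma adjusted p = 0.346, and 0.0695 with the block), and Skp1, an adaptor of the SCF ligase (0.23 ± 0.10; 0.352 and 0.285). The most negative value was that of Dtl, which brings Cdt1 to the CRL4 ligase. Dtl read 7.89, 7.02 and 6.80 in shControl, and 6.77, 6.78 and 6.02 in shAtoh8. Its groups did not overlap, and its fold change was -0.71 ± 0.32 (SE; limma adjusted p = 0.387, and 0.0809 with the block), the same size as the median of the licensing genes. The 4 measured genes of MCM relatives and handling had values from -0.36 to -0.15, and none passed (0, against 1 lower at an unadjusted p under 0.05). They were led by Mcm8, a relative of the ring subunits (-0.36 ± 0.15 SE, limma adjusted p = 0.357), and Hrob (-0.28 ± 0.15, 0.505). The set of Mcm8 was dim, with means of 5.485 in shControl and 5.127 in shAtoh8, below the lowest array median of 5.488. The geminin relatives Gmnc and Mcidas were not measured through a single-symbol probe set.

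**Figure D4:**
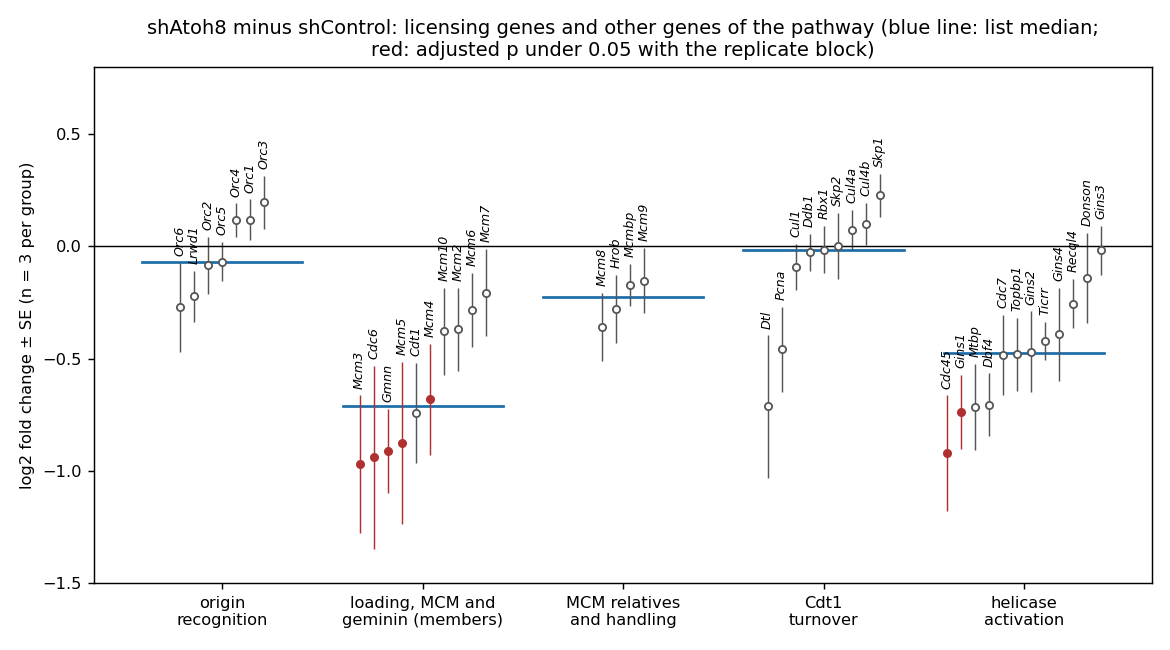
Log2 fold change ± SE (n = 3 per group) of the 10 licensing genes and of 32 other genes of the pathway in 4 lists, with blue lines at the list medians and red for an adjusted p under 0.05 with the replicate block. The medians are -0.07 for origin recognition, -0.71 for the licensing genes, -0.23 for MCM relatives, -0.01 for Cdt1 turnover and -0.48 for helicase activation.

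The E2F letters shown above did not sort the 8 licensing genes with a window by size. The 6 genes with a match had fold changes from -0.97 to -0.21. Mcm2 and Mcm10, without one in their windows, had -0.37 and -0.38. Mcm4 and Gmnn had no window, so only Mcm2 and Mcm10 stand for genes without a match. The same 12 letters stood before Mcm5 (-0.87 ± 0.36 SE) and Mcm6 (-0.28 ± 0.17), and in the windows of Msh3 (-0.35 ± 0.11) and Mycn (0.04 ± 0.08), and none of these 4 genes passed without the block. Among the other 544 measured genes with E2F letters in a window the median was -0.02, 55.1% were negative and 3.49% were called lower with the block. Among the 13900 without them these values were 0.01, 46.2% and 2.78%.

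Of the 8 genes with a window, Mcm7 had a neighbour that starts on the other strand within 1000 bases upstream, Ap4m1, a subunit of an adaptor complex. Ap4m1 had a fold change of -0.03 ± 0.11 (SE; limma adjusted p = 0.953), with pair differences of -0.22, 0.30 and -0.17, while those of Mcm7 were -0.46, -0.05 and -0.11.

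The genes whose pattern was most like the mean of the 10 were ranked by the root-mean-square difference of centred log2 signals over the 6 arrays. The 5 nearest were Dsn1 (0.047), Rfc3 (0.049), Rpa2 (0.057), Ercc6l (0.059) and Timeless (0.062), where the median over all genes was 0.462. Among the 10, Mcm4 (0.077) and Cdt1 (0.115) lay closest to their mean, and Cdc6 (0.285) and Mcm7 (0.238) farthest. Dsn1 read 7.40, 6.98 and 6.77 in shControl, and 6.65, 6.66 and 6.05 in shAtoh8. That its highest and lowest arrays were those of the licensing genes follows from its choice by nearness to their mean.

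**Figure D5:**
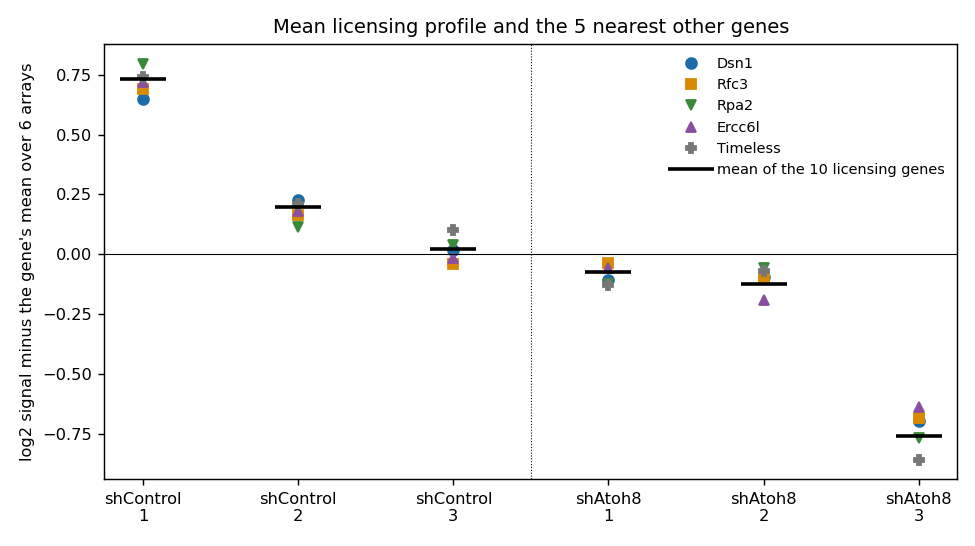
Log2 signal minus the gene's mean over the 6 arrays, for the mean of the 10 licensing genes (black bars) and the 5 other genes nearest to it (symbols). The bars stand at 0.73, 0.20 and 0.02 in replicates 1, 2 and 3 of shControl, and at -0.07, -0.12 and -0.76 in shAtoh8.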

How the data were processed

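RNA was hybridised as biotin-labelled cRNA, per the labels. The authors deposited a log2 signal for each probe set; RMA and the affy package made it, per the submitters' processing notes, which give no versions. RMA puts arrays on a common distribution, so a shift of most genes would have been removed. The 64 control probe sets were left out and 45037 were tested with no filter on brightness. Of these, 34945 had 1 gene symbol in the platform annotation, 932 several and 9160 none; the last 2 kinds named no gene. Promoter sequences came from RefSeq.

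shAtoh8 was compared with shControl in limma 3.58.1 (R 4.3.3; lmFit and eBayes, two-sided, Benjamini-Hochberg adjustment over all probe sets tested, threshold 0.05). The number of arrays limits the precision. Arrays of the same replicate number deviated together from their group means (correlations 0.407, 0.187 and 0.433 over all probe sets, against -0.351 to 0.029 between different numbers). Deviations from a group mean cancel out within the group, so positive values for the same number force negative ones on balance between different numbers. The contrast is thus partly built in. The labels describe independent experiments but do not state that equal numbers share one. The numbers were taken to pair the arrays, which was not tested further, and the block is given as well.

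The members and lists were chosen with earlier results of these data known. Named were the 10 members, Atoh8, in each pathway list the genes that passed or else the 2 with the smallest p, and the 5 nearest profiles; Orc6, Dtl, the markers, Ap4m1, Msh3 and Mycn were named after their values were seen.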

Additional observations from a re-analysis of the deposited data

How the results depend on the processing

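Over 19 alternatives all 190 values of the 10 genes stayed negative, and 24 of them passed the threshold, 23 under a replicate block. The member median was -0.86 to -0.48 with 1 array left out. The count of licensing genes past the threshold (0) became 5 with the replicate block, 1 when the probe sets of each gene were averaged (Gmnn, adjusted p = 0.0495, with fewer features tested) and 1 at a threshold of 0.1 (Gmnn). With 1 array left out it stayed at 0 (2 to 8 at an unadjusted p under 0.05 in limma, where 2585 to 2995 of all 18193 genes passed in either direction). The pathway genes past the threshold (0) became 2 with the replicate block and 3 at a threshold of 0.1, and stayed at 0 with 1 array left out. Over all genes the count of 210 became 324 with brighter probe sets alone, 849 with the block, 339 with array weights, 459 for averaged probe sets, 691 at 0.1 and 0 at 0.01. It was 0 to 117 with 1 array left out, the 0 being without shControl replicate 2.

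Further fits were chosen after seeing the data. The block fit on averaged probe sets gave 1916 genes, 7 licensing genes and 8 pathway genes, and without probe sets marked for cross-hybridisation it gave 777, 5 and 3. In the latter other sets stood for Mcm2, Mcm3, Mcm5 and Mcm7, and Mcm2 passed while Mcm5 did not. Without replicate 1 or 3 the block fit gave 0, 0 and 0, and without replicate 2 it gave 966, 6 and 8. The cause of these changes was not tested. Mcm6, Mcm7 and Mcm10 passed in none of the 19 alternatives.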
